A study of Homo sapiens with 18 samples.

Results

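The Cip/Kip family of cyclin-dependent kinase inhibitors has 3 members, CDKN1A (p21), CDKN1B (p27) and CDKN1C (p57), and their transcripts were followed across 18 bulk RNA libraries. The libraries came from 2 established breast cancer cell lines that express the oestrogen receptor, CAMA-1 and ZR-75-1. All 3 had a row in the table of 60656 genes, matched by Ensembl identifier, and 25113 of those rows had at least 1 count in some library. Each line was labelled wild type and parental and received DMSO, abemaciclib or palbociclib for 5 days, both drugs at 500 nM, with 3 libraries in each of the 6 groups. DMSO is the solvent, and abemaciclib and palbociclib inhibit CDK4 and CDK6, the kinases that start the phosphorylation of the retinoblastoma protein (Rb). Each condition rests on 1 culture model per line, so a difference between the lines is a difference between 2 cell lines. The family was selected on its measured values: CDKN1A responded to the drugs in opposite directions in the 2 lines. The drug responses of CDKN1A, their differences between the lines and between the drugs, and the DMSO levels that they share, are therefore given as a description with no test. Measures that did not choose the family were tested, except for comparisons of CDKN1C that are named below.

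Cip/Kip proteins bind complexes of a cyclin and a cyclin-dependent kinase and block CDK2 in particular, which holds cells before S phase. They also bind cyclin D with CDK4 or CDK6, where they help the complex to assemble. Transcription of CDKN1A is induced by DNA damage and other stress, p27 is controlled largely by degradation of the protein through the SKP2 ubiquitin ligase, and CDKN1C is an imprinted gene expressed from the maternal allele. INK4 proteins, the other inhibitor family, bind CDK4 and CDK6 directly.

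CDKN1A (ENSG00000124762.14) lies on the plus strand of chromosome 6 at 36676460 to 36687337 in GRCh38, CDKN1B (ENSG00000111276.11) on the plus strand of chromosome 12 at 12685498 to 12722369, and CDKN1C (ENSG00000129757.14) on the minus strand of chromosome 11 at 2883213 to 2885775. Their canonical transcripts have 3, 3 and 4 exons in GENCODE release 44. Opposite-strand genes overlap CDKN1A (DINOL, a long non-coding RNA, 0 to 2 counts per library) and CDKN1B (GPR19, 0 to 9 counts per library). Whether reads were counted by strand is not given in the sources used here, so reads in the overlaps cannot be told apart by strand. DINOL ends at 36678559 and GPR19 at 12696207, away from the 3′ ends of CDKN1A and CDKN1B.

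The promoters of CDKN1A and CDKN1B are printed, whose transcripts moved apart in CAMA-1 and together in ZR-75-1. No promoter sequence of CDKN1C was available in the reference used here. Both run from 250 bases before to 50 bases after the RefSeq start (GRCh38.p14), and capitals mark GGGCGG, the GC box read by SP1-type factors, on either strand.
CDKN1A, chr6:36678464-36678763, plus strand: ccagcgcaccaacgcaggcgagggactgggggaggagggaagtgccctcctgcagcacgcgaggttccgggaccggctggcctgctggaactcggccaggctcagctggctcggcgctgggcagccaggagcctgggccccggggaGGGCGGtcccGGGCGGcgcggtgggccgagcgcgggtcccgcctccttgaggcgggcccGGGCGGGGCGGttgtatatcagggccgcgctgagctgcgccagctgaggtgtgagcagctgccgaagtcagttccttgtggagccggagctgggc
CDKN1B, chr12:12717118-12717417, plus strand: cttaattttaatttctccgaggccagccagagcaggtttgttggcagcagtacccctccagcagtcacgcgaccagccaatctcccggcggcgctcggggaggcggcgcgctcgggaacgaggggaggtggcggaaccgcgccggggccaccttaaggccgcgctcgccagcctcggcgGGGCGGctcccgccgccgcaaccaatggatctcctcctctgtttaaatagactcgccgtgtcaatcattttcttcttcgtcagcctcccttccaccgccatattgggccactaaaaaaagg

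The CDKN1A window held GGGCGG 4 times, 2 of them overlapping by a base, and the CDKN1B window held it 1 time. At least 1 copy was present in 45.0% of 35116 RefSeq promoter windows of this length. CCAAT, the box bound by NF-Y, occurred 3 times in CDKN1B and 0 times in CDKN1A, against 34.6% of windows with at least 1 copy. CAGCTG, an E-box, occurred 3 times in CDKN1A and 0 times in CDKN1B, against 17.9% of windows. GC content was 74.3% for CDKN1A and 62.3% for CDKN1B, beside a median of 58.7% over all windows.

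Libraries held 2308442 to 4146549 counts. Levels below are CPM, counts scaled to a library total adjusted by TMM, the trimmed mean of log ratios between libraries, as mean ± SD over 3 libraries. Luminal markers (ESR1, GATA3, FOXA1, KRT8 and KRT18) summed to 2670 to 3680 CPM, while basal, leukocyte and endothelial markers summed to at most 1.24, 0.934 and 0.719 CPM. Fibroblast or mesenchymal markers (VIM, ZEB1 and COL1A1) summed to 11.9 to 24.4 CPM in CAMA-1 and 23.2 to 34.6 CPM in ZR-75-1. Most of this was COL1A1, with group means of 11.5 to 28.5 CPM, against 0.69 to 2.14 for VIM and at most 0.871 for ZEB1. Under each treatment the COL1A1 and ZEB1 means were higher in ZR-75-1 and the VIM mean was lower. The part of these markers in the differences between the lines was not tested. Mitochondrial genes took 14.8 to 16.6% of counts in CAMA-1 given DMSO, 22.9 to 26.1% in CAMA-1 given either drug and 17.3 to 22.6% in ZR-75-1. Without the mitochondrial genes the CDKN1A log2 fold changes in CAMA-1 were 1.99 with abemaciclib and 1.64 with palbociclib, the same as with them. In bulk RNA, fewer cells with a transcript and less of it per cell cannot be told apart.

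Before any drug, the lines differed most in CDKN1A among the 3 members. The DMSO libraries of CAMA-1 held 8.59, 8.01 and 12.6 CPM of CDKN1A (27, 24 and 55 counts) and those of ZR-75-1 held 147, 156 and 132 CPM (449, 509 and 384 counts). All ZR-75-1 libraries stood far above all CAMA-1 libraries. The level was 14.4-fold higher in ZR-75-1 (log2 fold change 3.85, SE 0.15). CDKN1B was 1.91-fold higher in ZR-75-1, at 78.3 ± 8.24 against 41.1 ± 1.90 CPM (log2 fold change 0.94, SE 0.13, adjusted p = 1.4e-09, edgeR quasi-likelihood test over all 18 libraries). CDKN1C went the other way, at 1.93 ± 0.744 CPM in ZR-75-1 against 4.46 ± 0.774 in CAMA-1. It passed the filter on low counts through CAMA-1 alone, where it was higher, so this difference was not tested. A gene was called at an adjusted p under 0.05 over all genes tested, and 61.4% of 11987 genes were called in this comparison of lines.

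CDKN1A was higher with either drug in CAMA-1 and lower with either drug in ZR-75-1. Libraries of CAMA-1 given DMSO had 8.59, 8.01 and 12.6 CPM, the abemaciclib libraries 43.3, 33.8 and 43.6 CPM, and the palbociclib libraries 28.3, 36.9 and 30.5 CPM. All 6 drug libraries lay above all 3 DMSO libraries, and the ranges of the 2 drugs overlapped. The means were 9.73 ± 2.50, 40.2 ± 5.57 and 31.9 ± 4.44 CPM, with log2 fold changes of 1.99 (SE 0.19, 3.96-fold) for abemaciclib and 1.64 (SE 0.19, 3.11-fold) for palbociclib.

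In ZR-75-1 the order was inverted. The DMSO libraries held 147, 156 and 132 CPM, the abemaciclib libraries 22.8, 28 and 27.5 CPM, and the palbociclib libraries 77.7, 65.2 and 68.7 CPM. The 3 groups did not overlap, with DMSO highest and abemaciclib lowest. The means were 145 ± 11.8, 26.1 ± 2.88 and 70.5 ± 6.45 CPM, and the log2 fold changes were -2.48 (SE 0.12) for abemaciclib, which is 5.58-fold lower, and -1.04 (SE 0.10) for palbociclib, which is 2.05-fold lower. With the response of CAMA-1 subtracted, the response of ZR-75-1 was -4.49 (SE 0.22) on the log2 scale for abemaciclib and -2.70 (SE 0.21) for palbociclib.

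The opposite movements brought the lines closer together. Under abemaciclib CDKN1A averaged 40.2 CPM in CAMA-1 and 26.1 CPM in ZR-75-1, so the order of the lines was the reverse of that under DMSO. Under palbociclib ZR-75-1 stayed higher, at 70.5 against 31.9 CPM. Over the 6 groups the levels ran from ZR-75-1 given DMSO, through ZR-75-1 given palbociclib, CAMA-1 given abemaciclib, CAMA-1 given palbociclib and ZR-75-1 given abemaciclib, to CAMA-1 given DMSO. The CAMA-1 drug groups overlapped, and the highest ZR-75-1 abemaciclib library (28 CPM) was only just below the lowest CAMA-1 palbociclib library (28.3 CPM).

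**Figure D1:**
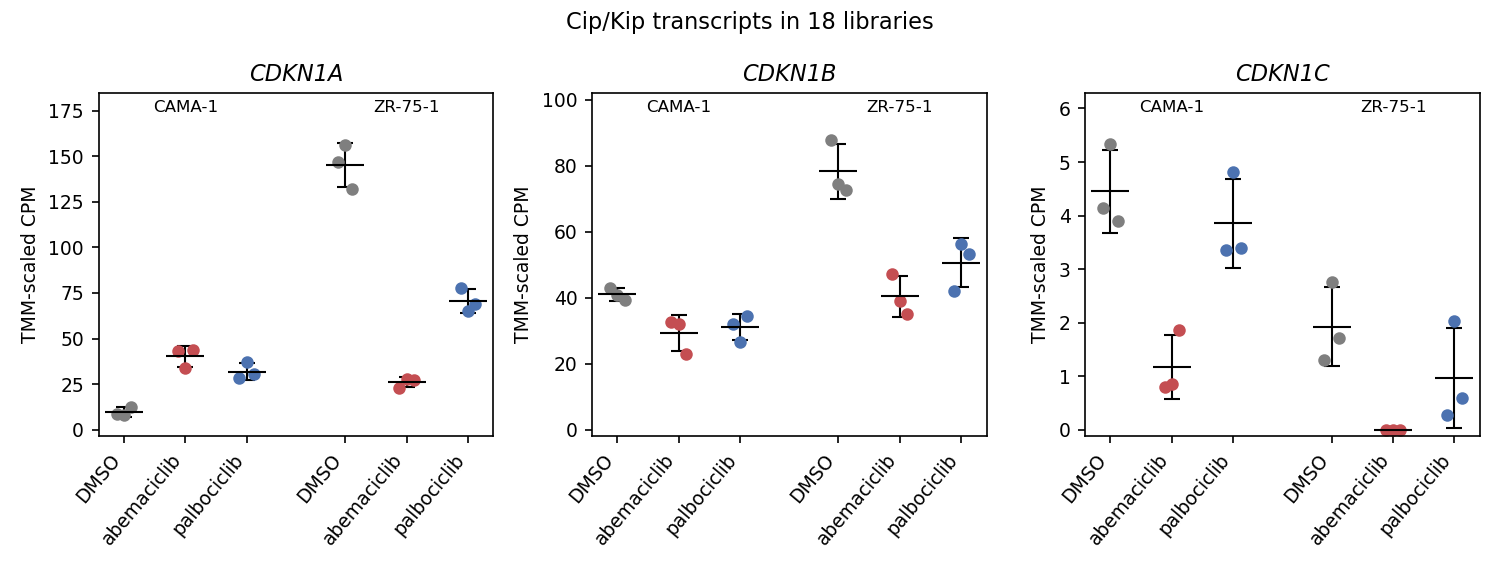
TMM-scaled CPM of CDKN1A, CDKN1B and CDKN1C (vertical axes start near 0 and differ between panels) in each of 18 libraries, by line and treatment; points are libraries, and horizontal bars with whiskers are the mean ± SD of 3. CDKN1A lay at 8.01 to 12.6 CPM in CAMA-1 given DMSO and 132 to 156 CPM in ZR-75-1 given DMSO. With either drug it was higher in CAMA-1 and lower in ZR-75-1.

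CDKN1B fell with both drugs in both lines. Libraries of CAMA-1 given DMSO had 43, 41 and 39.2 CPM, the abemaciclib libraries 32.7, 32.1 and 23 CPM, and the palbociclib libraries 32.1, 26.7 and 34.6 CPM. All drug libraries lay below all DMSO libraries, with replicate 3 of abemaciclib the lowest. The log2 fold change was -0.52 for abemaciclib (SE 0.15, adjusted p = 0.0048, edgeR quasi-likelihood test) and -0.43 for palbociclib (SE 0.15, adjusted p = 0.018), which are falls to 69.8% and 74.2% of the DMSO level. Without replicate 3 of abemaciclib the first was -0.37 with an adjusted p of 0.080. Without replicate 1 of DMSO or replicate 2 of palbociclib the second had an adjusted p of 0.059 or 0.12.

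CDKN1B also fell in ZR-75-1 with both drugs. The levels under DMSO were 87.8, 74.6 and 72.6 CPM, those under abemaciclib 47.3, 39.1 and 35 CPM, and those under palbociclib 42.2, 56.4 and 53.4 CPM. The drug libraries again lay below all DMSO libraries, and the drugs overlapped each other. The log2 fold change was -0.95 for abemaciclib (SE 0.13, adjusted p = 2e-09) and -0.64 for palbociclib (SE 0.13, adjusted p = 2.5e-05), or 51.7% and 64.3% of DMSO. With the response of CAMA-1 subtracted, that of ZR-75-1 was -0.46 for abemaciclib (95% interval -0.87 to -0.05, adjusted p = 0.11) and -0.23 for palbociclib (-0.62 to 0.16, adjusted p = 0.45), so the difference between the lines did not pass the test. CDKN1B levels ran from ZR-75-1 given DMSO (78.3 CPM) to CAMA-1 given abemaciclib (29.3 ± 5.41 CPM), and the CAMA-1 DMSO group overlapped both ZR-75-1 drug groups.

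CDKN1C was the scarcest member, with 0 to 17 counts per library. Libraries of CAMA-1 given DMSO had 13, 16 and 17 counts. Abemaciclib left 3, 2 and 6 counts, and with palbociclib there were 14, 17 and 10. The abemaciclib libraries were low and did not overlap the DMSO libraries, while the palbociclib libraries did. With abemaciclib CDKN1C stood at 1.17 ± 0.604 CPM, against 4.46 ± 0.774 with DMSO (log2 fold change -1.91, SE 0.55), or 26.7% of DMSO. In CAMA-1 it passed the filter on low counts through the DMSO and palbociclib libraries, where it was higher. Its abemaciclib comparisons are therefore a description with no test. With palbociclib it was 3.86 ± 0.835 CPM (log2 fold change -0.22, 95% interval -1.10 to 0.65, adjusted p = 0.73, edgeR quasi-likelihood test).

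In ZR-75-1 CDKN1C was near the limit of detection and did not pass the filter on low counts. The DMSO libraries held 4, 9 and 5 counts, the palbociclib libraries 1, 6 and 2, and all 3 abemaciclib libraries held 0. Against a floor of 3 counts per library (1.07 CPM), the abemaciclib level was at least 1.8-fold lower than the DMSO mean of 1.93 CPM. The palbociclib mean was 0.965 ± 0.933 CPM, and its range overlapped that of DMSO. The responses of CDKN1C were not compared between the lines by a test.

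Many genes moved in these comparisons. In CAMA-1, 40.5% of 11053 genes were called for abemaciclib and 37.4% for palbociclib, and in ZR-75-1, 36.2% and 28.1% of 11017 genes. Groups of libraries that did not overlap were also common, at 48.1% of CAMA-1 genes for abemaciclib and 46% for palbociclib, and 45.8% and 39% of ZR-75-1 genes. In CAMA-1 CDKN1B, the 1 member tested for abemaciclib, was called, and 1 of 2 tested members was called for palbociclib. In ZR-75-1 the 1 tested member, CDKN1B, was called for each drug. The difference in response between lines was called for 18.3% of 11987 genes for abemaciclib and 20.6% for palbociclib, but for CDKN1B, the 1 member tested, with neither drug. The unadjusted p of CDKN1B was under 0.05 with abemaciclib in edgeR, and DESeq2 called it with neither drug.

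**Figure D2:**
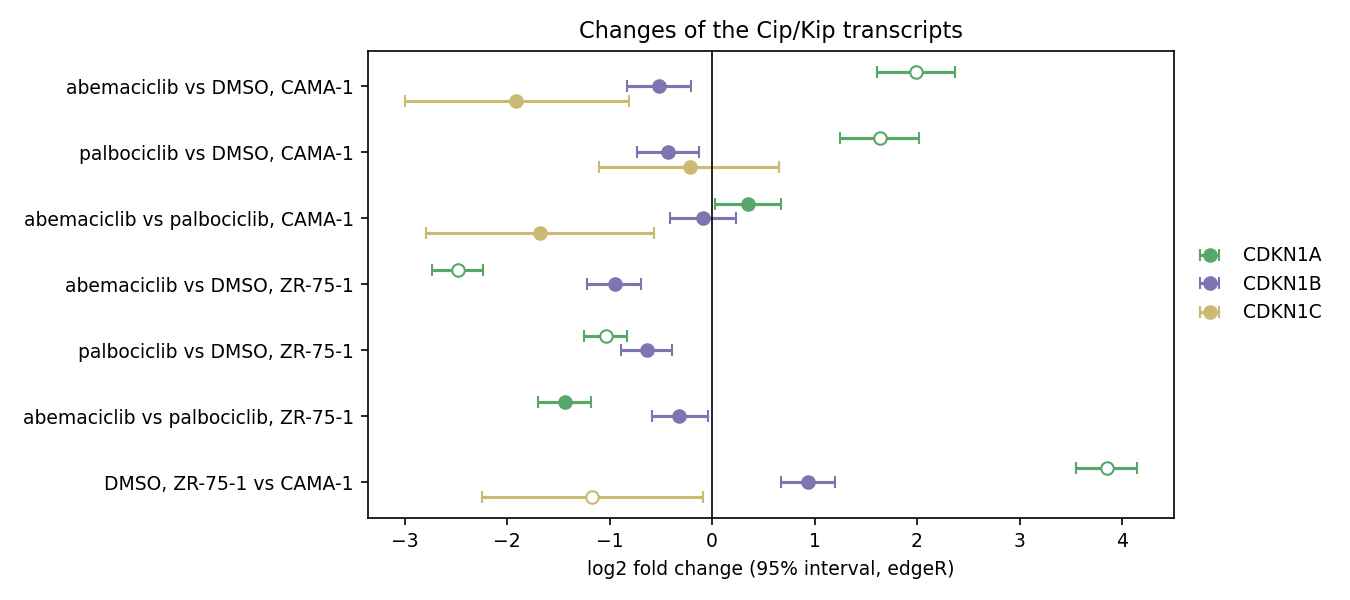
Log2 fold changes (horizontal axis) with 95% intervals for each member in 7 comparisons, from edgeR. Open points (CDKN1A against DMSO and between the lines, and CDKN1C between the lines) are a description. So are the filled points of CDKN1A between the drugs and of CDKN1C for abemaciclib in CAMA-1, against DMSO and palbociclib. The other filled points were tested. CDKN1C has no point for the ZR-75-1 drug comparisons, where it did not pass the filter, and CDKN1B lies below 0 in all 4 comparisons with DMSO.

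The drugs were compared directly at the matched dose and time. In ZR-75-1 CDKN1A was lower with abemaciclib than with palbociclib in all libraries (22.8 to 28 against 65.2 to 77.7 CPM). The log2 difference was -1.44 (SE 0.13), or 2.72-fold, and in CAMA-1 it was 0.35 (95% interval 0.03 to 0.67). Both use the drug libraries whose responses chose the family, so they are a description with no test. CDKN1B differed by -0.09 in CAMA-1 (-0.41 to 0.23, adjusted p = 0.89, edgeR quasi-likelihood test) and by -0.32 in ZR-75-1 (-0.59 to -0.04, adjusted p = 0.12). For CDKN1C the difference in CAMA-1 was -1.68 (-2.79 to -0.57), with 3, 2 and 6 counts for abemaciclib and 14, 17 and 10 for palbociclib. It is a description, since CDKN1C passed the filter through libraries other than those given abemaciclib. These drugs differed in 2.71% of the genes tested in CAMA-1 and in 13.6% of those in ZR-75-1, and libraries did not overlap for 17.8% and 27.5% of genes. CDKN1B, the 1 member tested, was not called by edgeR in either line. In ZR-75-1 its unadjusted p was under 0.05. DESeq2 called CDKN1B in neither line.

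The make-up of the family changed with the line and the drug. QuantSeq reads the 3′ end of each transcript, so the counts carry no term for gene length, although how well each 3′ end was captured was not measured. CDKN1A made up 17.6% ± 4.38 of the summed Cip/Kip counts in CAMA-1 given DMSO, 56.9% ± 6.51 with abemaciclib and 47.6% ± 5.48 with palbociclib. In ZR-75-1 it made up 64.3% ± 2.32, 39.4% ± 6.08 and 57.8% ± 6.16. CDKN1B therefore led the family in CAMA-1 under DMSO (74.3% ± 3.53) and in ZR-75-1 under abemaciclib (60.6% ± 6.08). CDKN1C fell from 8.08% ± 1.52 to 1.68% ± 0.916 of the family with abemaciclib in CAMA-1, and its 0 of 565 family counts in ZR-75-1 given abemaciclib allows a share of up to 0.531%, counting error only.

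The summed level of the 3 transcripts followed CDKN1A. It was 55.2 ± 0.737 CPM in CAMA-1 given DMSO, 70.6 ± 5.37 with abemaciclib and 66.9 ± 2.66 with palbociclib, and no drug library fell to the DMSO range. In ZR-75-1 it was 225 ± 16.1, 66.6 ± 3.81 and 122 ± 1.79 CPM. The lines did not overlap under DMSO but did under abemaciclib, where the ranges were 66.7 to 76.8 CPM in CAMA-1 and 62.5 to 70.1 CPM in ZR-75-1.

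**Figure D3:**
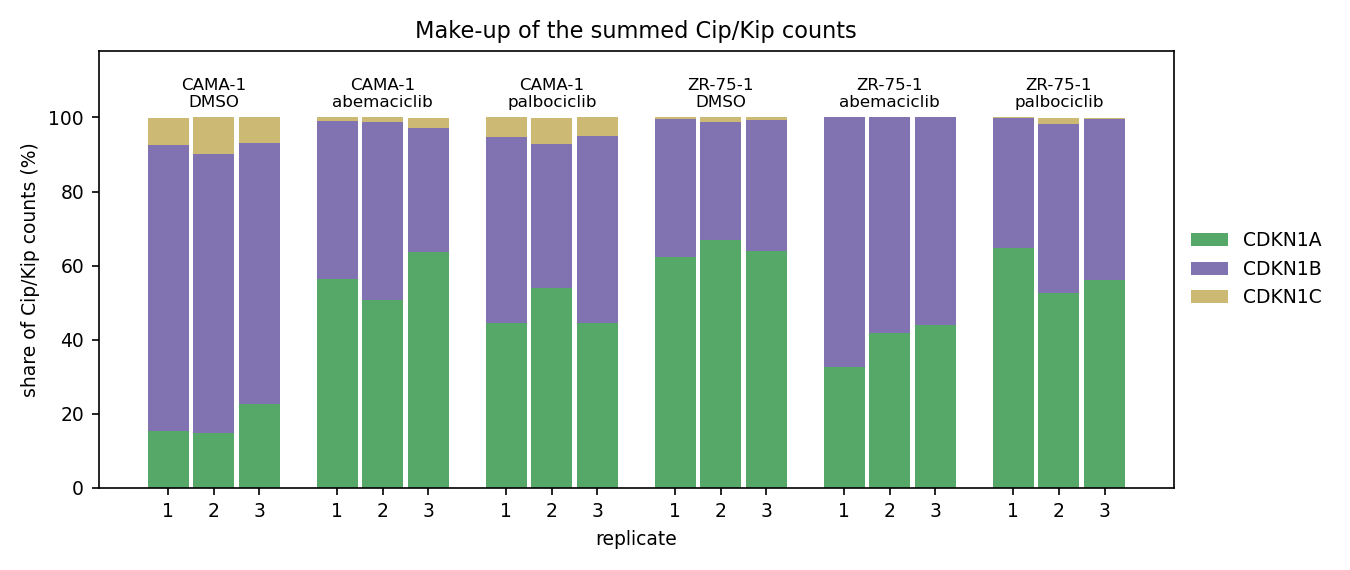
Share of the summed Cip/Kip counts (vertical axis, %) taken by CDKN1A, CDKN1B and CDKN1C in each library, 3 replicates per group. CDKN1A takes 14.7 to 22.6% in CAMA-1 given DMSO and 50.6 to 63.6% with abemaciclib, and in ZR-75-1 62.2 to 66.8% and 32.5 to 44%.

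More of the cyclins and kinases that Cip/Kip proteins bind fell than rose. Of 14 listed partners (cyclins, their kinases and PCNA), 11 were tested in CAMA-1, where 9 fell and 1 rose with each drug. In ZR-75-1, 12 were tested, of which 7 fell and 1 rose with abemaciclib and 6 fell and 1 rose with palbociclib. The median over the tested partners was -1.40 for abemaciclib and -1.32 for palbociclib in CAMA-1, with -1.48 and -0.68 for ZR-75-1, beside medians from -0.01 to 0.01 over all genes. Across all genes of CAMA-1, 20.2% fell for abemaciclib and 18.9% for palbociclib, and for ZR-75-1 the shares were 18.3% and 13.5%.

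Cyclin A2 (CCNA2), the S-phase partner of CDK2, fell by 4.20 and 2.84 on the log2 scale in CAMA-1 with abemaciclib and palbociclib, and by 4.64 and 1.50 in ZR-75-1. CDK1, the mitotic kinase, fell by 2.69 and 2.14 in CAMA-1 and by 2.75 and 0.90 in ZR-75-1. CDK2 was at -1.01 and -0.82 in CAMA-1 and was called with each drug. In ZR-75-1 it was at -0.2 and 0.07 (edgeR adjusted p = 0.2 and 0.7). CDK4 was called in CAMA-1 too (-0.46 and -0.44), but not in ZR-75-1 (-0.01 and -0.11). The member that rose was CCND1 (cyclin D1), by 1.30 (abemaciclib) and 1.31 (palbociclib) for CAMA-1 and by 0.93 and 0.82 for ZR-75-1, with adjusted p of at most 1.8e-22. Cyclin E2 (CCNE2), another partner of CDK2, had log2 fold changes in ZR-75-1 of -4.86 with abemaciclib and -1.47 with palbociclib, and of -2.72 with abemaciclib in CAMA-1. The ZR-75-1 abemaciclib libraries held 0 to 3 counts of CCNE2, so the size of the -4.86 is poorly determined. The proliferation marker MKI67 fell by 3.27 in CAMA-1 with abemaciclib and fell by 2.40 with palbociclib, and in ZR-75-1 it fell by 5.88 with abemaciclib and fell by 1.36 with palbociclib. All 6 proliferation markers listed fell in CAMA-1 with each drug, and 5 and 4 of 6 in ZR-75-1. MKI67 thus fell in all 4 comparisons, while CDKN1A was higher in 2 of them and lower in 2, and the part of proliferation in the CDKN1A levels was not tested.

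Genes that turn over p21 and p27 fell more often than they rose. All 12 listed genes of ubiquitin ligases and their adaptors were tested, and 7 fell in CAMA-1 with each drug, while 1 rose with abemaciclib and 0 with palbociclib. In ZR-75-1, 5 fell and 1 rose with abemaciclib, and 4 fell and 1 rose with palbociclib. The shares of all genes that fell were the 20.2%, 18.9%, 18.3% and 13.5% given above. SKP2, the F-box protein that marks p27 for degradation, fell by 1.06 and 1.05 on the log2 scale in CAMA-1 (adjusted p = 1.3e-06 and 1.2e-06), fell by 0.54 with abemaciclib in ZR-75-1 (adjusted p = 0.0037) and was at -0.11 with palbociclib (adjusted p = 0.63). DTL, the CRL4 receptor that marks p21 in S phase, fell by 3.23 and 1.74 in CAMA-1 and by 1.72 and 0.42 in ZR-75-1. CDC20, an activator of the anaphase-promoting complex, fell by 1.99 and 1.87 and by 1.45 and 0.99. These are transcript levels, and neither the ligases nor p21 or p27 were measured as protein in these libraries.

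INK4 transcripts moved in both directions in CAMA-1. CDKN2B (p15) rose there by 1.50 (SE 0.25, adjusted p = 6.3e-07) with abemaciclib and 1.69 (SE 0.24, adjusted p = 1.6e-08) with palbociclib, while CDKN2A, CDKN2C (p18) and CDKN2D (p19) fell with each drug. CDKN2C fell most, at -3.85 with abemaciclib, where 3 to 5 counts per library were left, and -2.38 with palbociclib. In ZR-75-1 the 3 tested genes all fell with each drug, with CDKN2A at -2.56 and -1.03, CDKN2C at -3.02 and -1.57 and CDKN2D at -2.45 and -0.93. CDKN2B did not pass the filter there and had 0 to 3 counts in the DMSO libraries, against 16 to 35 in CAMA-1. Among all genes of CAMA-1, 20.3% and 18.5% rose and 20.2% and 18.9% fell with abemaciclib and palbociclib. For ZR-75-1, 18.3% and 13.5% fell. CDKN2A also encodes ARF, which counts per gene do not separate from p16.

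Of 22 listed regulators upstream of the family, 19 were tested in CAMA-1, where 6 rose and 3 fell with abemaciclib and 5 rose and 3 fell with palbociclib. In ZR-75-1 20 were tested, with 2 rising and 8 falling, and 0 rising and 7 falling. In CAMA-1 20.3% and 18.5% of all genes rose with abemaciclib and palbociclib and 20.2% and 18.9% fell, and in ZR-75-1 17.9% and 14.6% rose and 18.3% and 13.5% fell. MDM2, an E3 ubiquitin ligase, was at -0.02 and -0.03 in CAMA-1 (adjusted p = 0.89 and 0.85), and in ZR-75-1 rose by 0.23 with abemaciclib (adjusted p = 0.0054, or 0.055 without replicate 1 of ZR-75-1 abemaciclib) and was at 0.08 with palbociclib (adjusted p = 0.45).

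KLF4 and KLF6, Krüppel-like factors that bind GC-rich sites of the CDKN1A promoter, changed in opposite directions in the lines, as CDKN1A did. KLF4 stood at 3.48 ± 0.541 CPM in CAMA-1 given DMSO, 7.95 ± 1.77 with abemaciclib and 8.84 ± 0.730 with palbociclib, and at 15.3 ± 1.68, 7.52 ± 2.39 and 8.16 ± 1.77 in ZR-75-1. It rose by 1.14 and 1.30 on the log2 scale in CAMA-1 (adjusted p = 0.0072 and 0.0016) and fell by 1.04 and 0.92 in ZR-75-1 (adjusted p = 0.002 and 0.0061). KLF6 rose by 0.85 and 0.97 and fell by 0.79 and 0.79. The response of ZR-75-1 less that of CAMA-1 was -2.20 and -2.25 for KLF4 (adjusted p = 0.00011 and 3.3e-05) and -1.66 and -1.79 for KLF6 (adjusted p = 1.1e-17 and 8.7e-20). KLF4 was 2.12 higher on the log2 scale in ZR-75-1 at baseline (adjusted p = 8.4e-09). SP1 was at -0.19 and -0.22 in CAMA-1 and at -0.53 and -0.36 in ZR-75-1. SP3 was at 0.47 and 0.43 in CAMA-1 and at -0.01 and -0.05 in ZR-75-1. For SP1 and SP3 the difference between the lines was called with neither drug (edgeR adjusted p of 0.17 to 0.56). Only the transcripts of these factors were measured, and their part in the CDKN1A levels was not tested.

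Other regulators moved differently. FOXO1, a forkhead factor that activates Cip/Kip genes, rose by 1.51 and 1.68 in CAMA-1 (adjusted p = 0.0012 and 0.00024) and was at -1.17 and 0.20 in ZR-75-1 (adjusted p = 0.13 and 0.82). Its difference between lines passed for abemaciclib (-2.71, adjusted p = 0.0024). EZH2, the Polycomb methyltransferase that can silence CDKN1C, fell by 1.51 and 1.36 in CAMA-1 and by 2.27 and 1.10 in ZR-75-1. MYC, which represses CDKN1A, fell with palbociclib in ZR-75-1 (-0.51, adjusted p = 0.046, but 0.17 in DESeq2 and not called without replicate 1 or 2 of either group) and was at 0.05, 0.24 and -0.28 in the other comparisons with DMSO. TP73, a transcription factor, had 1 to 4 counts in CAMA-1 given DMSO and 25 to 38 in ZR-75-1 given DMSO, where its log2 fold change with abemaciclib was -1.41 (adjusted p = 0.00098).

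Of 28 listed genes that, like CDKN1A, are induced by DNA damage and other stress (called stress-response genes here), 22 were tested in CAMA-1 and 25 in ZR-75-1. In CAMA-1 9 rose and 4 fell with abemaciclib (median log2 fold change 0.29) and 8 rose and 4 fell with palbociclib (median 0.10). In ZR-75-1 3 rose and 12 fell with abemaciclib (median -0.60) and 3 rose and 8 fell with palbociclib (median -0.27). Of all genes tested, 20.3% rose for abemaciclib and 18.5% for palbociclib in CAMA-1, with 17.9% and 14.6% for ZR-75-1, and the shares that fell were again 20.2%, 18.9%, 18.3% and 13.5% in the same order. For the difference between the lines, 0 of these genes were higher and 10 lower for abemaciclib, and 2 higher and 9 lower for palbociclib, of 25 tested, beside 8.22% higher and 10.1% lower of all genes for abemaciclib and 10.1% and 10.4% for palbociclib. Under DMSO 18 of 25 were higher and 2 lower in ZR-75-1, among them MDM2 (log2 difference 1.74), BTG2 (4.07), DDB2 (2.67) and GDF15 (4.15). Of all genes, 31.6% were higher and 29.9% lower in that comparison. PHLDA3, an inhibitor of AKT signalling, had 0 or 1 count in each CAMA-1 DMSO library and 278 to 291 in those of ZR-75-1.

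GDF15, a secreted stress cytokine, moved in the same directions as CDKN1A. It held 6.58 ± 2.25, 56.2 ± 6.50 and 172 ± 3.84 CPM in CAMA-1 given DMSO, abemaciclib and palbociclib, and 121 ± 15.5, 13.8 ± 3.12 and 39.7 ± 4.00 CPM in ZR-75-1. It rose by 3.01 and 4.62 in CAMA-1 and fell by 3.16 and 1.62 in ZR-75-1. BBC3 (PUMA), which promotes apoptosis, rose by 0.53 and 0.62 in CAMA-1 and fell by 1.36 and 0.60 in ZR-75-1. The antiproliferative gene BTG2 rose by 2.25 and 2.15 in CAMA-1 and was at 0.01 (adjusted p = 0.98) with abemaciclib in ZR-75-1, where it rose by 0.65 with palbociclib.

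Other stress-response genes did not follow CDKN1A. DDB2, a DNA damage sensor, fell in all 4 comparisons, by 1.37 and 1.89 in CAMA-1 and by 2.17 and 1.27 in ZR-75-1. Its fall with abemaciclib in CAMA-1 (adjusted p = 0.016) had an adjusted p of 0.075 in DESeq2 and of 0.058 to 0.090 without replicate 1 or 3 of DMSO or replicate 2 or 3 of abemaciclib. TP53INP1, a stress-induced nuclear protein, rose by 2.03 and 1.96 in CAMA-1 and was at 0.77 and 0.72 in ZR-75-1 (adjusted p = 0.051 and 0.081, the first at 0.035 to 0.050 under 2 other scalings, a filter on mean counts, without mitochondrial genes or in 1 fit of all libraries). RRM2B, a damage-induced ribonucleotide reductase subunit, rose by 1.16 with palbociclib in ZR-75-1, opposite to CDKN1A.

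**Figure D4:**
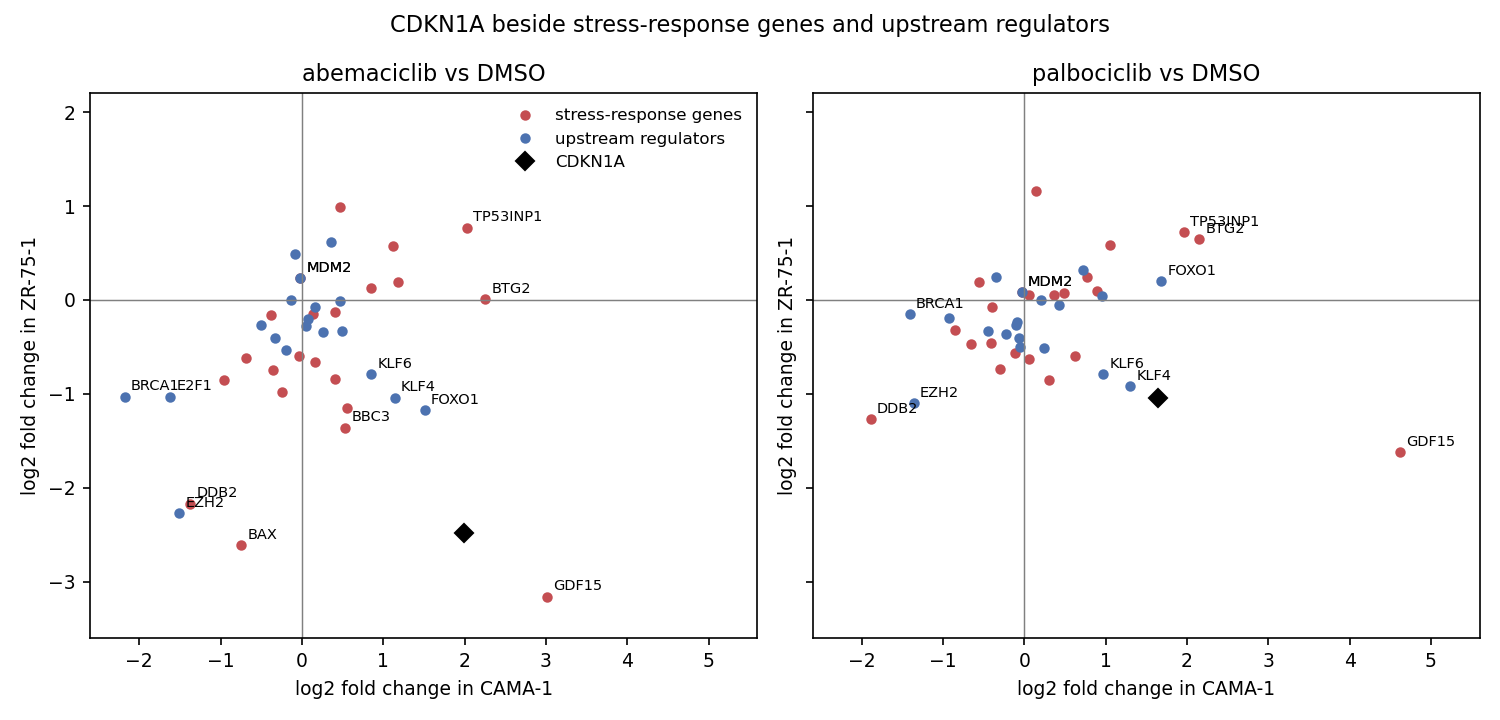
Log2 fold change against DMSO in CAMA-1 (horizontal axis) and in ZR-75-1 (vertical axis) for listed stress-response genes (red), listed upstream regulators (blue) and CDKN1A (black diamond), with abemaciclib on the left and palbociclib on the right; MDM2 is in both lists. Points in the lower right quadrant were higher in CAMA-1 and lower in ZR-75-1, as CDKN1A (1.99 and -2.48 with abemaciclib), GDF15, KLF4 and KLF6 were.

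CDKN1C lies in an imprinted domain. Of 8 listed neighbours, 5 passed the filter in each line. In CAMA-1 1 of them fell with each drug, PHLDA2, a maternally expressed growth restrictor, by 0.95 and 0.59. KCNQ1, a potassium channel gene, did not pass there, at -1.08 for abemaciclib (adjusted p = 0.087) and at -0.27 for palbociclib, whose adjusted p was 0.69. In ZR-75-1 0 fell, 2 rose with abemaciclib and 3 rose with palbociclib. Of all genes, 20.2% and 18.9% fell in CAMA-1 with abemaciclib and palbociclib. In ZR-75-1 18.3% and 13.5% of all genes fell, and 17.9% and 14.6% rose. SLC22A18, the nearest gene with a mean of at least 10 counts, starts 13946 bases beyond CDKN1C and in ZR-75-1 rose by 0.62 and 0.47 (adjusted p = 0.0011 and 0.019). The second was 0.087 in DESeq2 and was lost without replicate 1 or 2 of DMSO or replicate 1 of palbociclib (0.057, 0.12 and 0.21). KCNQ1OT1, the antisense RNA of the imprinting control region, was at -0.44 (adjusted p = 0.052) with abemaciclib in CAMA-1 and -0.33 (adjusted p = 0.36) in ZR-75-1. Near CDKN1A, SRSF3, a splicing factor 70860 bases away, fell in both lines, by 0.97 and 0.80 in CAMA-1 and by 1.03 and 0.68 in ZR-75-1. PPIL1, on the other side, fell by 0.56 and 0.46 in CAMA-1 and, in ZR-75-1, by 0.37 with palbociclib (adjusted p = 0.034), while it was at -0.34 with abemaciclib (adjusted p = 0.053). CREBL2, 40390 bases from CDKN1B, was at 0.07 and 0.34 in CAMA-1 and at 0.16 with each drug in ZR-75-1, with adjusted p of 0.28 to 0.84. RPL13AP20, a pseudogene 153130 bases to the other side whose reads may be shared with RPL13A, fell with both drugs as CDKN1B did, by 0.85 and 0.75 in CAMA-1 and by 0.59 and 0.50 in ZR-75-1 (adjusted p of at most 0.00096).

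The genes most like each member were ranked by Pearson's r of log2 CPM over all 18 libraries, among genes that averaged at least 10 counts. The libraries share lines and treatments, so these values describe the pattern and carry no test. For CDKN1A they were NORAD (r = 0.911), SESN2 (0.905), RPS27L (0.905), NRP1 (0.898) and PMPCB (0.897). SESN2 is also among the listed stress-response genes. For CDKN1B they were AARS1 (0.942), SNRPD1 (0.941), C9orf152 (0.94), H3-3B (0.94) and HNRNPU (0.936). For CDKN1C they were MCRS1 (0.918), GTF3C5 (0.914), DNMT1 (0.9), ESRP1 (0.896) and SAAL1 (0.891).

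Within each line the genes most like CDKN1A were others. Over the 9 CAMA-1 libraries DGCR2 (0.99), PDGFB (0.99), ADD3 (0.989), DYNC1LI2 (0.989) and the unnamed ENSG00000268205 (0.988) ranked first. Over the 9 ZR-75-1 libraries RNF157 (0.998), H2AZ2 (0.996), H1-10 (0.995), STMN1 (0.994) and NEK2 (0.993) did, of which H2AZ2 encodes a histone variant, STMN1 a microtubule destabiliser and NEK2 a mitotic kinase. No gene was in both of these lists of 5.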

How the data were processed

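RNA was measured by QuantSeq 3′ mRNA sequencing in 18 libraries. Per the labels and the study's methods, the authors trimmed reads with BBDuk, aligned them to hg38 with STAR 2.7.5b and counted them per GENCODE gene with featureCounts 2.0.1, and deposited the raw read counts. Strand, multi-mapping and molecular identifiers are not given in the sources used here, and the labels and the methods name the kit differently. The study describes replicates as independent.

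Counts were fitted with edgeR 4.0.16 (R 4.3.3): filterByExpr, TMM, robust quasi-likelihood F test, Benjamini-Hochberg adjustment over all genes tested. Drugs were compared within each line (9 libraries), and responses and DMSO levels between lines over all 18. DESeq2 (1.42.0 here, another version in the study) was an alternative, with other scalings, filters, a replicate block and left-out libraries. The fits were tested on simulated counts. The 95% intervals come from the fits and include the spread between libraries, while floors (3 counts) cover counting error only. The DMSO level of CDKN1A and its difference between the drugs were planned as tests and are given without one. The same holds for the line comparisons of CDKN1C and its abemaciclib comparisons in CAMA-1.

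The members and lists were chosen with earlier results of these data known. Besides the members, the rule named at most 4 called genes of each list per comparison by size of change with a mean of at least 10 counts, always MDM2, SKP2, MKI67 and a gene not reported here, the 5 genes most like a member, and the nearest genes. CCND1, CDK2, CDK4, SP1, SP3, CDKN2B in every group, and the levels of PHLDA3 and TP73 in DMSO were given after their values were seen.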

Additional observations from a re-analysis of the deposited data

Results flagged for a closer look

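Every CDKN1A library given a drug lay above the DMSO libraries in CAMA-1 and below them in ZR-75-1. With the response of CAMA-1 subtracted, that of ZR-75-1 was -4.49 on the log2 scale for abemaciclib and -2.70 for palbociclib. This difference chose the family and was not tested.

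For the other genes, the same difference between the lines was tested by an interaction term in edgeR and passed an adjusted p of 0.05. It was negative for both drugs for GDF15 (-6.19 for abemaciclib and -6.26 for palbociclib), BTG2 (-2.30 and -1.52), BBC3 (-1.91 and -1.25), KLF4 (-2.20 and -2.25), KLF6 (-1.66 and -1.79) and TP53INP1 (-1.28 and -1.27). It was negative for abemaciclib for BAX (-1.88) and FOXO1 (-2.71), which for palbociclib were at -0.47 (adjusted p = 0.58) and -1.51 (adjusted p = 0.077), the latter called without replicate 1 of CAMA-1 DMSO or 3 of ZR-75-1 DMSO. For HES1 it was -0.94 for palbociclib and 0.24 for abemaciclib (adjusted p = 0.11), which passed without mitochondrial genes, replicate 3 of CAMA-1 DMSO or replicate 1 of ZR-75-1 abemaciclib. The BAX difference had an adjusted p of 0.063 without the filter on low counts and of 0.053 to 0.14 without any 1 of 6 libraries (replicate 1 of CAMA-1 DMSO, 3 of CAMA-1 abemaciclib, 1 and 2 of ZR-75-1 DMSO, 1 and 3 of ZR-75-1 abemaciclib). For palbociclib, BTG2 was not called without replicate 3 of CAMA-1 DMSO or of CAMA-1 palbociclib (adjusted p = 0.2 and 0.18), nor TP53INP1 without replicate 2 of CAMA-1 DMSO or 3 of CAMA-1 palbociclib (adjusted p = 0.062 and 0.055). For abemaciclib TP53INP1 was not called without replicate 2 of CAMA-1 DMSO or 1 of CAMA-1 abemaciclib (adjusted p = 0.072 and 0.062). BAX with abemaciclib in CAMA-1 was at -0.75 (adjusted p = 0.068) and was called without replicate 3 of abemaciclib (-1.06, adjusted p = 0.03). The difference was positive for both drugs for BRCA1 (1.13 and 1.24). For MKI67 it was -2.64 for abemaciclib and 1.02 for palbociclib, since MKI67 fell further in ZR-75-1 with abemaciclib and further in CAMA-1 with palbociclib. The difference for CDKN1B did not pass the threshold with either drug.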

How the results depend on the processing

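The direction of every CDKN1A drug response held under each alternative run. Over other scalings, filters, DESeq2, 1 fit of all libraries and the replicate block, the CDKN1A log2 fold change stayed between 1.98 and 2.02 for abemaciclib in CAMA-1 and between -2.48 and -2.47 in ZR-75-1, and leaving out a library gave 1.87 to 2.25 and -2.54 to -2.38. For CDKN1B with palbociclib in CAMA-1, DESeq2 gave -0.43 with an adjusted p of 0.079, and leaving out a library gave -0.50 to -0.33, with the call lost in 2 of 6 fits (adjusted p up to 0.12). For CDKN1B with abemaciclib in CAMA-1, leaving out a library gave -0.62 to -0.37. For abemaciclib against palbociclib, leaving out a library gave -0.19 to 0.06 for CDKN1B in CAMA-1 and -0.43 to -0.22 in ZR-75-1, where it was called without replicate 1 of palbociclib (adjusted p = 0.036). The untested DMSO difference of CDKN1C gave -1.58 to -0.96. Its fitted difference in response between the lines, also untested, was -3.80 for abemaciclib (-2.95 with DESeq2, and -4.05 to -3.24 without a library) and -0.86 for palbociclib (-1.88 to -0.40 without a library). The cause of these changes was not tested, beyond the fewer libraries.

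CDKN1C, filtered out in ZR-75-1, had a fitted log2 fold change of -5.60 for abemaciclib without the filter (adjusted p = 0.0038), -4.88 with DESeq2 (adjusted p = 0.010) and -5.68 in the fit of all libraries. Against a group at 0 these values are poorly determined, and those from edgeR depend on the prior count. Replicates of the same number did not deviate together (correlations of -0.06 to 0.01), so the numbers do not pair the libraries. With the replicate block CDKN1B was at -0.53 and -0.44 in CAMA-1. The blocks lay within each line, so the block does not apply to the baseline difference between the lines. No member gained or lost a call in the other comparisons under the block.

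Values near 0 changed sign. MDM2 in CAMA-1 was 0.01 for abemaciclib and 0.00 for palbociclib in the fit of all libraries, and -0.14 to 0.07 and -0.06 to 0.02 without a library. In ZR-75-1, leaving out a library gave -0.06 to 0.14 for BTG2 with abemaciclib, and with palbociclib -0.10 to 0.55 for FOXO1 and -0.01 to 0.09 for HES1. Over all genes, abemaciclib against palbociclib called 300 in CAMA-1 and 1499 in ZR-75-1, but 187 and 898 with DESeq2, and in CAMA-1 184 without replicate 1 of palbociclib and 185 without replicate 3 of abemaciclib.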
